A study of Mus musculus with 6 samples.

Results

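The genes described here encode 37 proteins of the Fanconi anaemia pathway and of homologous recombination, with the kinases that signal DNA breaks. They were followed in hematopoietic stem cells (HSCs) of PU.1 knock-in mice and wild-type mice. A gene was read by the probe sets that carry its symbol in the array annotation, and where a gene had several, the brightest by mean intensity over the 6 arrays stood for it. In this way 34 of the 37 genes were found by symbol and 1 more, H2afx, under its current symbol H2ax. Xrcc2 and Rbbp8 were not analysed here. That leaves 35 of the 18193 genes that the annotation names on the array. There were 3 arrays of HSCs from PU.1 ki/ki mice, homozygous for a knock-in at the gene of the transcription factor PU.1 and called knock-in below, and 3 of HSCs from wild-type mice. All mice were adult, and the cells had been sorted for Sca1, cKit and CD150 and against lineage markers and CD48. The labels give neither the construction of the knock-in allele nor the number of animals behind an array, and p-values therefore speak only of the spread among these arrays, which may be technical. Intensities are given as deposited, log2 differences are PU.1 ki/ki minus wild type of log2(intensity + 1), and errors of means are SDs over n = 3 arrays.

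Homologous recombination repairs double-strand breaks and collapsed replication forks by copying the sister chromatid, and the Fanconi pathway unhooks crosslinks between DNA strands and hands the resulting break to the same machinery. A nuclear core complex attaches ubiquitin to the FANCD2-FANCI clamp, nucleases cut at the crosslink, ends are resected, and BRCA2 acts in the step at which a resected end invades the sister. Inherited loss of the pathway in humans causes Fanconi anaemia, a bone marrow failure in which stem cells are lost, and many of these genes are transcribed mainly in cycling cells.

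None of the 35 repair genes passed the test for a genotype difference. In limma's moderated fit over all 45037 probe sets, with Benjamini-Hochberg adjustment, 0 probe sets had an adjusted p under 0.05, a background of 0%, and the 35 genes had adjusted p of 0.551 to 1. Without adjustment, 3731 probe sets had a p under 0.05, and 2835 had one in an unmoderated linear model, which also called 0. Of the repair genes, 3 had an unadjusted p under 0.05 and were higher in knock-in HSCs (Fancf, Slx4 and Atr), where the background over all genes was 4.39%. Another 2 were lower (Rad51d and Fancg), where it was 4.27%. The 3 knock-in values lay above all 3 wild-type values for Fancf, Brca2 and Slx4, where the background was 6.44%, and below them for Rad51d and Fancg, where it was 6.36%. Together 14.3% of the repair genes did not overlap between groups, and 12.8% of all genes, so the count of separated genes is near the background. The 95% interval of the difference included 0 for 30 of the 35 genes.

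**Figure D1:**
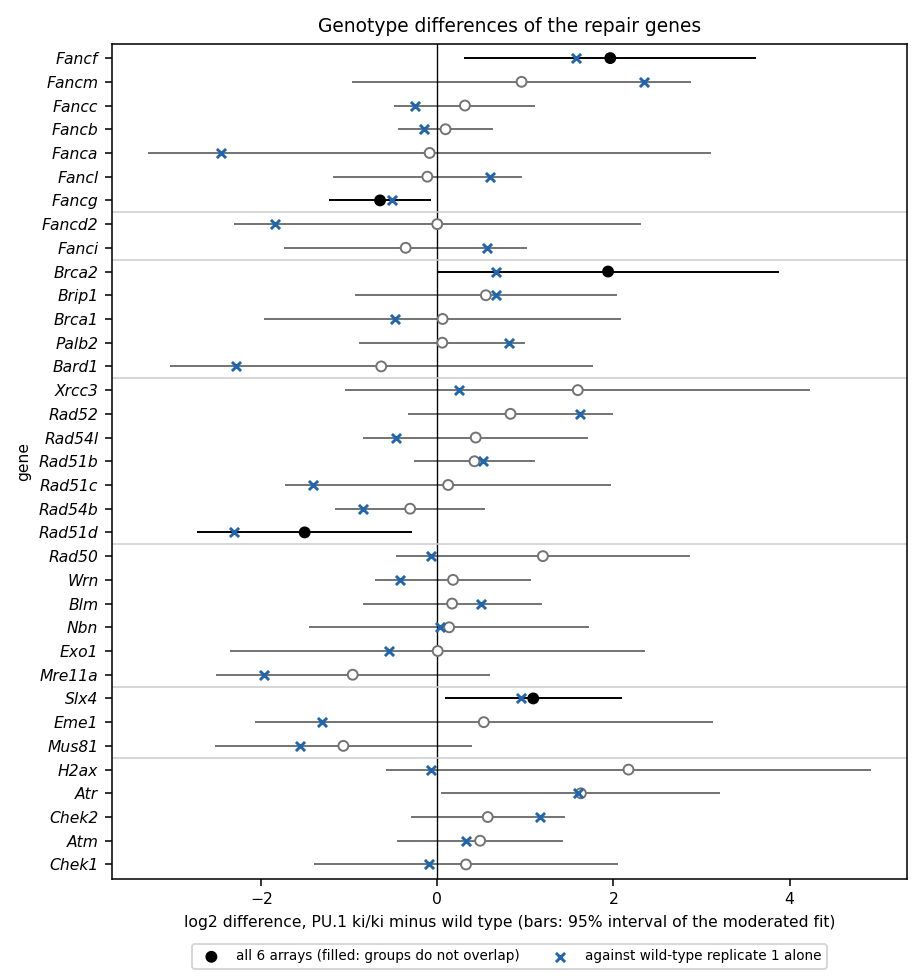
Log2 difference of intensity (x axis, PU.1 ki/ki minus wild type) for each of the 35 repair genes (y axis, grouped by role), with the 95% interval of the moderated fit as a bar and filled points for the 5 genes whose groups did not overlap. Crosses give the difference against wild-type replicate 1 alone, and 13 of the 35 crosses lie on the other side of 0 from their point.

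The 5 genes whose groups did not overlap were picked out by their values, at a share near the background. Promoters are shown for 4 of them, and no window of Rad51d was in the reference used. Each is the RefSeq window of 300 bases, from 250 before to 50 after the annotated start, build GRCm38.p6, written 5′ to 3′ along the gene. Capitals mark CCAAT, here always on the strand shown. Whether these annotated starts are the ones used in HSCs was not tested. The windows are chr7:51862218-51862517 on the minus strand for Fancf, chr5:150522371-150522670 on the plus strand for Brca2, chr16:4001629-4001928 on the minus strand for Slx4 and chr4:43010252-43010551 on the minus strand for Fancg.
Fancf: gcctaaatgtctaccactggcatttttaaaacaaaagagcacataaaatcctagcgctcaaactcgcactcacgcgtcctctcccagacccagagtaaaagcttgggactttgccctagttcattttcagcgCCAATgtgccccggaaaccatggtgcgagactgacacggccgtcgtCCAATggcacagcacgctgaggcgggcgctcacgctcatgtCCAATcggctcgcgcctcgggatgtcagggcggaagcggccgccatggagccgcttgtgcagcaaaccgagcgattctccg
Brca2: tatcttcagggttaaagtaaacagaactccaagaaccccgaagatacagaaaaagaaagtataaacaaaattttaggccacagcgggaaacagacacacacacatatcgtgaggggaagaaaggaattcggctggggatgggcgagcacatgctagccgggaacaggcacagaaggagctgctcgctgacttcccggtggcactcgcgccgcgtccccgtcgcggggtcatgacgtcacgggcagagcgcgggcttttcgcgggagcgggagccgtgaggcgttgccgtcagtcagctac
Slx4: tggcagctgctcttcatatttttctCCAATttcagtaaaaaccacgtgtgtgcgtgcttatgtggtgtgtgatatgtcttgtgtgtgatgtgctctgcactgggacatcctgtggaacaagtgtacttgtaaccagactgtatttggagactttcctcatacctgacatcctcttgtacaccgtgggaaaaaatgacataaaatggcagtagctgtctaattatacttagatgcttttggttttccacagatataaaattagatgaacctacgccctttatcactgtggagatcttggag
Fancg: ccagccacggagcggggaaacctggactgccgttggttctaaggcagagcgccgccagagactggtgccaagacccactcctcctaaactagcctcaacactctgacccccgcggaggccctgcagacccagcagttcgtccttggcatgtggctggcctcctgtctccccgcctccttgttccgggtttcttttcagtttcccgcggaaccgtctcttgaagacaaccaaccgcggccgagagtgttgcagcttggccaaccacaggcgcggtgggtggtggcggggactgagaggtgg

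The motifs searched, on both strands, were the E2F sites TTTCGCGC and TTTGGCGC, the CHR element TTTGAA, the CCAAT box and the PU.1-type ETS site GAGGAAGT, none of which contains another. Windows were found for 27 of the 35 genes, 30 windows in all. CCAAT was in 18 of the 30, or 16 genes, and in 37.4% of all 32851 windows. Fancf held 3 copies, starting 118, 72 and 31 bases before the annotated start, and Slx4 held 1. Brca2 and Fancg held no match to any of these exact sequences. Other forms of the E2F site were not searched, so a lack of E2F sites cannot be read from this. TTTGAA was in 3 of the 30 windows, against 17.9% of all windows. TTTCGCGC was in the window of Rad51c alone, GAGGAAGT in that of Fancc alone and TTTGGCGC in none, where 0.323%, 3.20% and 0.514% of all windows held them.

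The wild-type arrays differed more among themselves, and this touches every gene below. Pearson correlations across probe sets were 0.940 to 0.951 among knock-in arrays and 0.831 to 0.858 among wild-type arrays. Wild-type replicate 1 was closer to the knock-in arrays (0.919 to 0.926) than to wild-type replicates 2 and 3 (0.858 and 0.847). Those 2 replicates correlated at 0.856 to 0.880 with the knock-in arrays. A gene with a median of 100 or more over 5 arrays was counted as low, or as having lost signal, on the other array where its value there was smaller by 4-fold or more. Of the 8122 to 8209 genes with such a median, this held for 0.357 to 0.810% on the knock-in arrays, and for 2.28%, 10.04% and 11.6% on wild-type replicates 1, 2 and 3. The 3' to 5' signal ratio of the Gapdh control was 2.98 to 4.75 on the knock-in arrays, against 3.36, 6.11 and 6.68 on wild-type replicates 1, 2 and 3. That of the Actb control did not follow it, at 0.920 to 0.964 on the knock-in arrays, against 0.879, 0.919 and 0.437 on the same wild-type replicates. Of the repair genes, Eme1, Exo1, Fancf, H2ax and Xrcc3 were low in this sense on wild-type replicate 2. Brca2, Fanca, H2ax and Rad50 were low on replicate 3 and Fancm was low on replicate 1. No repair gene was low on a knock-in array. The SD of log2 values was larger in wild type for 28 of the 35 genes (80.0%) and for 74.4% of all genes, with a median of 0.40 in knock-in and 0.82 in wild type for the repair genes.

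Of 10 genes listed for HSCs 8 were measured, 4 higher and 4 lower in knock-in HSCs. They summed to 5893 to 8023 in knock-in and 4627 to 6979 in wild type. The list includes Cd48, against whose protein the cells had been sorted, and Cd34, whose protein was not among the sorting markers. The split and sum of the list therefore do not measure HSC identity, and neither does the difference of Cd34. Mecom (0.37), Fgd5 (0.92), Slamf1 (2.48) and Cd34 (3.09) were higher, and Kit (-0.22), Procr (-0.61), Hlf (-0.12) and Cd48 (-0.25) were lower. Cd34 was the gene of this list whose groups did not overlap, with 1152, 583 and 1196 in knock-in, against 98, 64 and 200 in wild type (limma adjusted p = 0.430). Slamf1, the gene of CD150, read 696, 1525 and 170 in knock-in, against 440, 54 and 42 in wild type (limma adjusted p = 0.655). Markers of mature cells summed to 164 to 276 and 238 to 289 for all 5 T cell genes and to 303 to 722 and 174 to 551 for all 5 monocyte and macrophage genes, in the order knock-in and wild type. For 4 of 5 B cell genes the sums were 283 to 325 and 176 to 753, for 4 of 5 erythroid genes 291 to 578 and 408 to 1086, for 4 megakaryocyte genes 1002 to 2330 and 650 to 1541, and for 4 endothelial genes 403 to 495 and 238 to 789. Within the erythroid list Klf1 was higher, with 118, 123 and 159 in knock-in, against 42, 21 and 11 in wild type. Hba-a1 was lower, with 36, 47 and 36 against 65, 85 and 48, both without overlap. Ermap, the brightest of that list, was lower with overlap (-1.49). The T cell gene Cd3e was lower without overlap, at 43, 32 and 58 in knock-in, against 76, 98 and 150 in wild type. So were Cd79a, at 21, 27 and 26 against 32, 42 and 28, and S100a8, at 2284, 3040 and 2754 against 3642, 3265 and 4133. All 4 measured B cell genes and all 4 measured neutrophil genes were lower. Over all genes 12.8% did not overlap. The neutrophil genes were bright, with sums of 10435 to 14569 and 13999 to 19739 over 4 of 5 genes, and the part of such RNA in the results was not tested. The gene of PU.1 itself, Spi1, read 170, 212 and 161 in knock-in and 158, 195 and 199 in wild type.

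**Figure D2:**
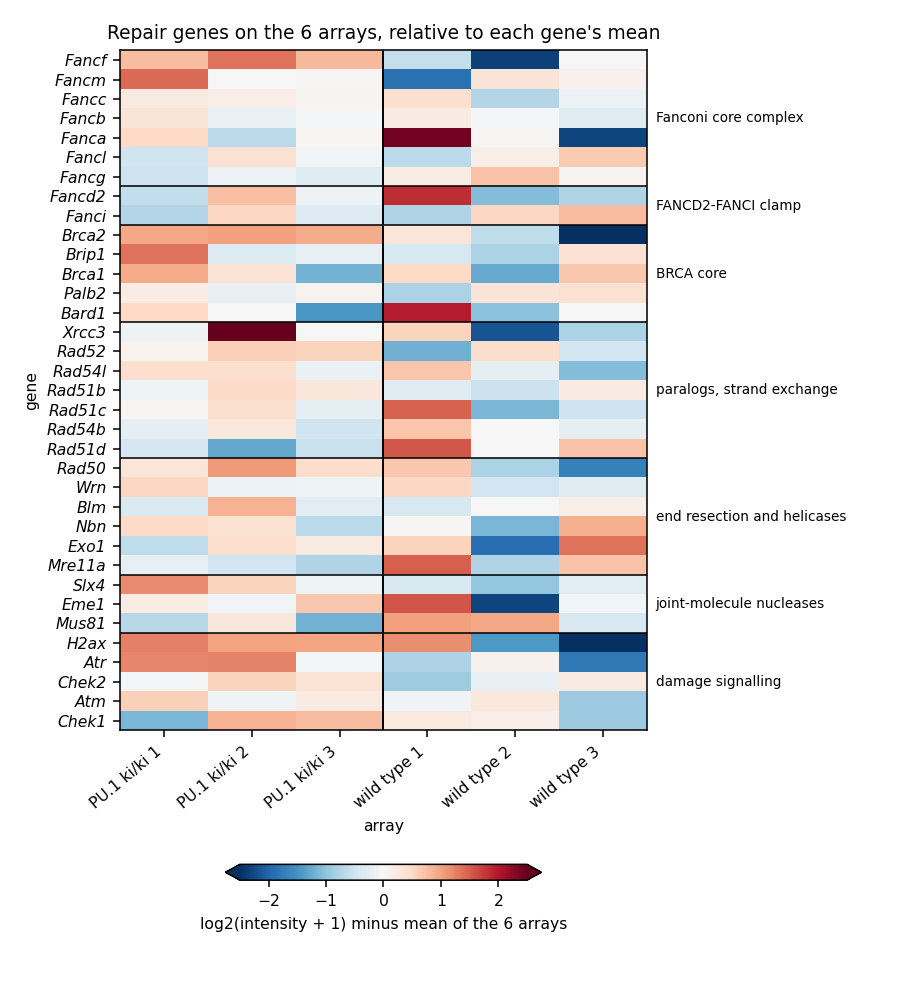
Log2(intensity + 1) of the 35 repair genes (rows, grouped by role) on the 3 PU.1 ki/ki and 3 wild-type arrays (columns), relative to each gene's mean over the 6 arrays. The darkest red cell of the knock-in columns is Xrcc3 on replicate 2, and the darkest blue cells lie in wild-type columns, among them Fancf and Eme1 on replicate 2 and H2ax and Brca2 on replicate 3.

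The Fanconi core complex is the ubiquitin ligase that marks FANCD2 and FANCI, and its 7 measured genes were split, with 4 higher and 3 lower in knock-in HSCs (median 0.09), where Fancb turned to lower after centring. Fancf, an adaptor that holds the complex together, read 206, 309 and 212 in knock-in HSCs, against 79, 23 and 119 in wild-type HSCs. All 3 knock-in arrays were above every wild-type array, and the lowest value was on wild-type replicate 2. The difference was 1.96 ± 0.65 (SE, 95% interval 0.30 to 3.62, limma adjusted p = 0.565), and it was 1.29 without wild-type replicate 2. The other probe sets of Fancf differed by 0.18 and 0.30.

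Fancg, a scaffold subunit rich in protein repeats, was the member of the complex that separated in the other direction. It read 1316, 1685 and 1512 in knock-in HSCs, against 2135, 3090 and 1972 in wild-type HSCs. The groups did not overlap, and wild-type replicates 2 and 3 were not low here. The difference was -0.65 ± 0.22 (SE, 95% interval -1.23 to -0.08, limma adjusted p = 0.576), and it lay between -0.78 and -0.45 when single arrays were left out. Its other probe set overlapped between groups and differed by -0.08. Fancg and Fancf thus lay on opposite sides of 0 within the same complex on the probe sets kept.

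The rest of the core complex overlapped between groups. Fanca, a large core subunit whose gene is the one most often mutated in human Fanconi anaemia, read 181, 79 and 131 in knock-in and 682, 129 and 25 in wild type. Wild type thus held both its highest and its lowest value. The difference was -0.09 ± 1.25 (SE), and it was 1.10 without wild-type replicate 1. Fancm, the translocase that anchors the complex on DNA, averaged 238 ± 146 in knock-in and 132 ± 79.8 in wild type (0.96), with 41 as the value of wild-type replicate 1 and none of the other 5 arrays below 152. Fancl, the subunit with the ubiquitin ligase activity, averaged 399 ± 121 and 447 ± 189 (-0.11). Fancc averaged 114 ± 6.03 and 96.7 ± 37.6 (0.31), and the X-linked Fancb 36.3 ± 6.81 and 34.0 ± 6.0 (0.09), all in that order of knock-in and wild type.

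FANCD2 and FANCI form the clamp that the core complex marks and that encloses DNA at a stalled fork. Fancd2 read 21, 56 and 30 in knock-in HSCs, against 121, 15 and 19 in wild-type HSCs. The difference was -0.002. Its wild-type replicate 1 was the highest of the 6 arrays and replicates 2 and 3 were the lowest, so the wild-type range enclosed every knock-in value. Its 3 other probe sets differed by 0.24 to 0.67. Fanci averaged 283 ± 131 in knock-in and 374 ± 175 in wild type (-0.36, limma adjusted p = 0.863).

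**Figure D3:**
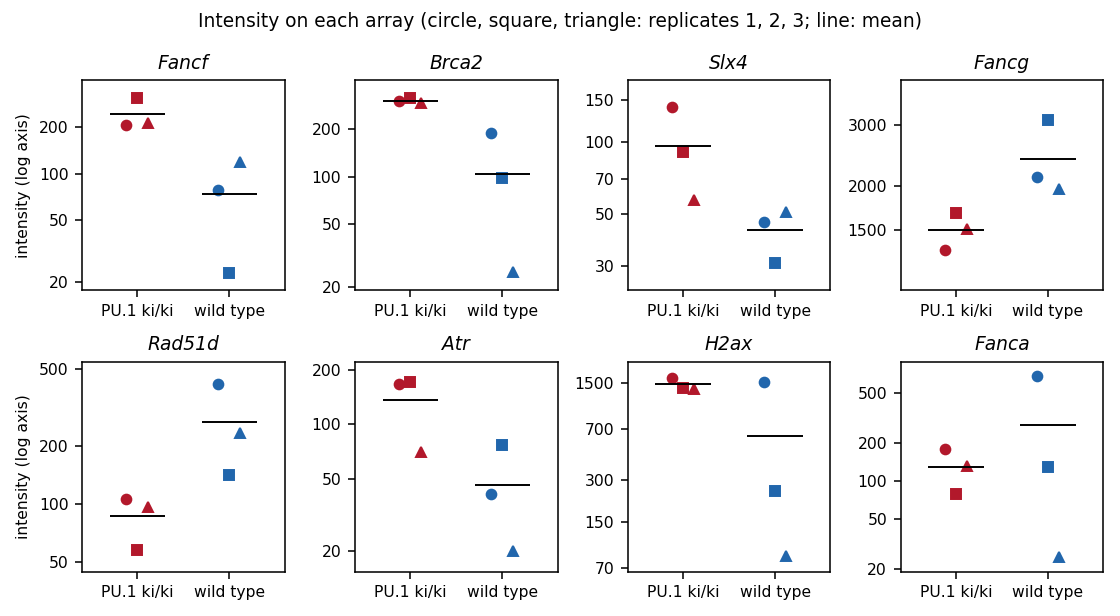
Intensity (y axis, log scale) on each array of PU.1 ki/ki (left, red) and wild type (right, blue) for 8 repair genes, with lines at the group means and a marker shape for each replicate number. Fancf, Brca2 and Slx4 were higher and Fancg and Rad51d lower on all PU.1 ki/ki arrays, Atr overlapped, and for H2ax wild-type replicate 1 lay among the PU.1 ki/ki arrays.

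The BRCA proteins direct breaks into recombination and prepare strand invasion, and of their 5 genes 4 were higher and 1 lower in knock-in HSCs (median 0.06), where Brca1 and Palb2 turned to lower after quantile normalization or centring. Brca2, which acts at strand invasion, read 300, 313 and 292 in knock-in, against 190, 98 and 25 in wild type. Its knock-in arrays were nearly equal, at 302 ± 10.6, and all above the wild-type arrays, which averaged 104 ± 82.7. The difference was 1.94 ± 0.76 (SE, limma adjusted p = 0.603, unadjusted p = 0.0501). It was 1.14 without wild-type replicate 3, 2.58 without replicate 1 and 0.66 against wild-type replicate 1 alone. The array annotation names 1 probe set for Brca2.

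Brca1, which with BARD1 forms a ubiquitin ligase and promotes resection, overlapped between groups on the probe set kept. It read 648, 429 and 148 in knock-in HSCs, against 481, 140 and 540 in wild-type HSCs. The difference was 0.06. A second probe set of Brca1 read 99, 353 and 236 in knock-in, against 174, 35 and 22 in wild type, a difference of 1.95 with overlapping groups. Its low wild-type values were those of replicates 2 and 3, where genes had lost signal most often. The part of lost signal in this probe set was not tested. Bard1 read 88, 61 and 22 in knock-in, against 244, 30 and 62 in wild type (-0.64). Palb2, the bridge between BRCA1 and BRCA2, averaged 55.7 ± 7.77 in knock-in and 56.7 ± 22.3 in wild type (0.06). The helicase gene Brip1 averaged 188 ± 135 and 116 ± 49.2 in the same order (0.55), with 344 on knock-in replicate 1.

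The paralogs RAD51B, RAD51C, RAD51D and XRCC3 assist strand exchange, and RAD52 and the RAD54 proteins act in annealing and strand exchange. Of 7 measured genes 5 were higher and 2 lower in knock-in HSCs (median 0.42). Rad51d, of the paralog complex that also holds RAD51B, RAD51C and XRCC2, read 106, 58 and 96 in knock-in, against 421, 141 and 234 in wild type. No value overlapped, and the highest was on wild-type replicate 1. The difference was -1.51 ± 0.48 (SE, 95% interval -2.73 to -0.28), the lowest adjusted p of the 35 genes (limma, 0.551). It lay between -1.89 and -1.11 when single arrays were left out.

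Other probe sets of Rad51d differed in sign. Its 3 other probe sets differed by -0.25, 0.65 and 0.30, and the mean of all 4 differed by -0.20. The groups of its partners overlapped on the probe sets kept, with Rad51b at 39.7 ± 8.08 in knock-in and 29.7 ± 8.33 in wild type (0.42) and Rad51c at 64.3 ± 14.6 and 79.7 ± 78.6 (0.12). Xrcc3, of the other paralog complex, read 286, 1794 and 317 in knock-in, against 459, 70 and 181 in wild type, a difference of 1.59. Replicate 2 of the knock-in group was far above the other arrays, and the difference was 0.74 without it and 0.92 without wild-type replicate 2. Its other probe set was lower in knock-in, at 92, 147 and 145, against 189, 193 and 287 in wild type (-0.80), with no overlap. The 2 readings of Xrcc3 therefore had opposite signs.

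The annealing and strand exchange factors overlapped between groups. Rad52 averaged 469 ± 85.2 in knock-in and 290 ± 164 in wild type (0.83, limma adjusted p = 0.667), with 150 on wild-type replicate 1. The motor gene Rad54l averaged 327 ± 71.1 in knock-in and 269 ± 162 in wild type (0.44), and 2 of its 3 other probe sets had the opposite sign. Its relative Rad54b read 13 to 23 in knock-in and 16 to 31 in wild type, close to the table's minimum.

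Resection of broken ends is begun by the MRE11-RAD50-NBN complex and extended by EXO1 or by BLM and WRN helicases. Of the 6 measured genes 5 were higher and 1 lower in knock-in HSCs, where Blm, Nbn and Exo1 turned to lower after quantile normalization and Exo1 also after centring, and none separated. The subunits of the MRE11 complex did not go the same way. Rad50 read 245, 415 and 269 in knock-in, against 317, 115 and 61 in wild type (1.20), and -0.07 was its difference against wild-type replicate 1 alone. Mre11a, the nuclease, read 278, 230 and 190 in knock-in, against 903, 190 and 526 in wild type (-0.96, limma adjusted p = 0.694). Its other probe set had the opposite sign (0.31). Nbn averaged 374 ± 141 in knock-in and 375 ± 238 in wild type (0.13).

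Exo1, a 5' exonuclease, depended on which probe set was read. The one kept read 57, 119 and 104 in knock-in, against 131, 23 and 228 in wild type, a difference of 0.004. A second was passed over by a small margin, since its mean over the 6 arrays was 109.8 and that of the one kept 110.3. It read 137, 214 and 135 in knock-in, against 70, 34 and 69 in wild type. Its groups did not overlap, and it differed by 1.51. The helicase genes overlapped between groups, with Wrn at 683 ± 185 in knock-in and 619 ± 244 in wild type (0.18). Blm stood at 124 ± 65.0 and 103 ± 19.98 (0.17).

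Joint molecules and stalled forks are cut by MUS81-EME1 on the scaffold SLX4. Slx4 read 140, 91 and 57 in knock-in HSCs, against 46, 31 and 51 in wild-type HSCs. The groups were separated by a narrow margin, 57 against 51, and overlapped after quantile normalization or centring. The difference was 1.09 ± 0.39 (SE, 95% interval 0.08 to 2.09, limma adjusted p = 0.589), and it was 0.95 against wild-type replicate 1 alone. Mus81 was lower, with 91, 181 and 65 in knock-in, against 305, 291 and 113 in wild type (-1.07, limma adjusted p = 0.661). Knock-in replicate 2 lay above wild-type replicate 3. Its other probe set differed by 0.38. Its partner Eme1 read 133, 111 and 186 in knock-in, against 348, 23 and 111 in wild type (0.53), with a wild-type range that spanned all knock-in values.

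All 5 genes of damage signalling were higher in knock-in HSCs on the probe sets kept, with a median of 0.57, and none passed the test. Over all genes 52.2% were higher. Chek1 turned to lower without wild-type replicate 3 (-0.045) and without knock-in replicate 2 (-0.028). Atr, the kinase of stalled forks, read 167, 170 and 70 in knock-in, against 41, 77 and 20 in wild type. Only knock-in replicate 3 and wild-type replicate 2 overlapped. The difference was 1.63 ± 0.62 (SE, 95% interval 0.05 to 3.21, limma adjusted p = 0.598), and it was 1.59 against wild-type replicate 1 alone. The next brightest probe set of Atr (mean 83.3, where the one kept had 90.8) read 52, 130 and 50 in knock-in and 71, 53 and 144 in wild type, a difference of -0.22.

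H2ax, the histone variant phosphorylated around breaks, had the largest difference of the 35 genes and rested on 2 arrays. It read 1632, 1381 and 1357 in knock-in, against 1525, 252 and 86 in wild type, a difference of 2.17 ± 1.08 (SE, limma adjusted p = 0.652). Wild-type replicate 1 lay within the knock-in range, and against that array alone the difference was -0.07. Both low values were on arrays with lost signal, whose part in the result was not tested. Atm, the kinase of double-strand breaks, averaged 1113 ± 263 in knock-in and 824 ± 313 in wild type (0.49). The effector kinase genes were Chek1, at 434.7 ± 249 and 311 ± 118 (0.32), and Chek2, at 170.0 ± 34.8 and 118 ± 43.5 (0.57), in the same order.

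Probe sets of the same gene often pointed in different directions. Of the 35 genes 24 had several probe sets, and for 15 of these (62.5%) at least 1 other probe set had the opposite sign to the one kept. Over all 9010 genes with several probe sets this share was 59.8%. Among the separated genes, Fancf and Fancg kept their sign on every probe set with smaller differences, Rad51d did not, and Brca2 and Slx4 had 1 probe set each.

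**Figure D4:**
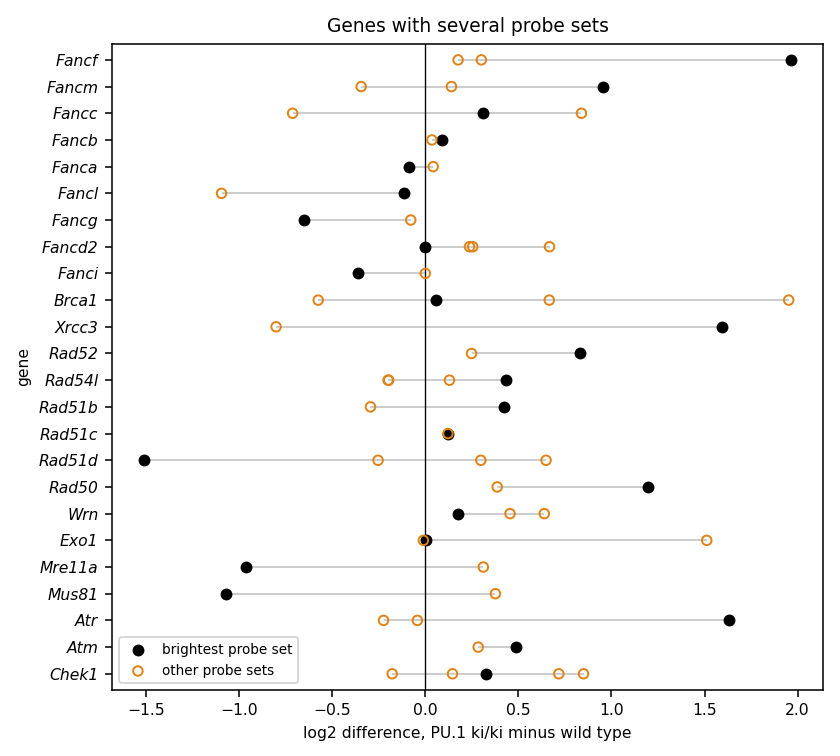
Log2 difference (x axis, PU.1 ki/ki minus wild type) of every probe set of the 24 repair genes with several (y axis), with the brightest one, used in the text, filled and the others open. For 15 genes an open point lies on the other side of 0 from the filled one, as for Xrcc3, Mre11a, Mus81 and Atr.

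As a list, 25 of the 35 repair genes were higher and 10 lower in knock-in HSCs (71.4% higher), with a median difference of 0.18. Over all genes 52.2% were higher, with a median of 0.01, and over the 8625 genes with a mean intensity of 100 or more 60.1% were higher, with a median of 0.16. The 26 repair genes with such a mean had 19 higher and 7 lower and a median of 0.32. Scaling changed the split, for all genes too. A quantile normalization of the log2 values gave 20 higher and 15 lower (57.1% higher), against 44.9% of all genes, whose median was -0.07. Setting every array's median equal gave 21 and 14 (60.0% higher), against 42.6% of all genes, whose median was -0.10. The split also depended on the wild-type arrays. Without wild-type replicate 1 there were 27 higher and 8 lower (median 0.44), with 52.4% of all genes higher. Against that array alone there were 16 higher and 19 lower (median -0.07), with 47.0% of all genes higher. The lowest of the 6 values was on wild-type replicate 2 or 3 for 21 of the 35 genes (60.0%), against 46.8% of all genes. With a mean intensity of 100 or more this share was 57.7% for the repair genes and 53.7% for all genes.

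Other genes of the pathway were read from a list of 54 entries, of which 52 were measured, among them replication protein A, RecQ helicases, the BRCA1-A complex and the checkpoint clamp. Of these 35 were higher and 17 lower in knock-in (median 0.21). The median was -0.02 without wild-type replicate 2, 0.46 without replicate 1 and -0.18 against replicate 1 alone. Of the 52 genes 0 had an adjusted p under 0.05 in limma, and 0 had an unadjusted one. The groups did not overlap for 4 genes, all higher, which were picked out by their values: Helq (0.34), Babam1 (0.32), Babam2 (1.64) and Trp53bp1 (0.88). These are 7.69% of the list, where 12.8% of all genes did not overlap. Babam2, of the BRCA1-A complex, read 447, 743 and 479 in knock-in and 431, 277 and 43 in wild type. Trp53bp1, which restrains resection, read 3727, 3785 and 5074 in knock-in and 2750, 1154 and 3610 in wild type. The translesion polymerase gene Rev3l averaged 92.0 ± 27.0 in knock-in and 46.7 ± 21.96 in wild type (1.01), and Sem1, which encodes a small partner of BRCA2, 4363 ± 486 and 2561 ± 1439 (0.90). Ube2t, the ubiquitin-conjugating enzyme of the core complex, averaged 61.3 ± 22.1 in knock-in and 124 ± 60.1 in wild type (-0.93). The helicase gene Recql5 averaged 34.7 ± 3.06 in knock-in and 39.3 ± 3.51 in wild type (-0.18). None of these named genes passed the test (limma adjusted p of 0.607 to 0.740).

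End joining, the pathway that seals breaks without a template, was read by 14 of 15 listed genes, 9 higher and 5 lower in knock-in (median 0.67). The median was 0.21 without wild-type replicate 3, 0.42 without wild-type replicate 2 and 0.28 without knock-in replicate 1. It was -0.38 against wild-type replicate 1 alone. Without genes low on a wild-type array it was -0.12, but that step drops genes by their own low wild-type values. The step by itself tends to lower the median, so nothing is concluded from it. Xrcc4, the cofactor of the ligase, read 108, 128 and 100 in knock-in, against 51, 12 and 34 in wild type, with no overlap (1.97, limma adjusted p = 0.510). Xrcc5, of the Ku heterodimer, averaged 197 ± 62.7 in knock-in and 91.3 ± 90.6 in wild type (1.48). The polymerase genes Polm and Poll averaged 55.3 ± 5.69 and 49.3 ± 21.9 in knock-in, against 86.0 ± 17.3 and 95.3 ± 36.96 in wild type (-0.61 and -0.96), and Polm did not overlap. Genes without overlap made up 14.3% of the list, beside 12.8% of all genes, and no gene of the list passed the test.

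The level of the repair genes by array stood beside that of cell cycle genes. Relative to each gene's mean, the median level of the 35 repair genes was 0.19, 0.39 and -0.03 on the knock-in arrays, against 0.31, -0.47 and -0.14 on wild-type replicates 1, 2 and 3. For 25 measured cell cycle genes it was 0.11, 0.31 and 0.14 on the knock-in arrays, against 0.50, -0.59 and -0.03 on the wild-type arrays. In both lists wild-type replicate 2 was the lowest array and replicate 1 was above the other wild-type arrays. Of the cell cycle genes 18 were higher and 7 lower in knock-in (median 0.34), with 0 past the test. That median was -0.06 without wild-type replicate 2, 0.22 without replicate 3, 0.82 without replicate 1 and -0.36 against replicate 1 alone. It was 0.04 without genes low on a wild-type array, a step that by itself tends to lower the median. The licensing factor Cdc6 (1.65) and the helicase subunit Mcm5 (0.79) had the lowest p among the higher, and Mcm4 (-0.21) and the licensing inhibitor Gmnn (-0.31) among the lower. Cdc6 did not overlap, with 756, 855 and 650 in knock-in, against 520, 91 and 281 in wild type. Genes without overlap made up 4% of this list, beside 12.8% of all genes. In bulk RNA of sorted cells, fewer cycling cells and less of these RNAs per cell cannot be told apart, and the part of cycling or of lost signal in the repair genes' levels was not tested.

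**Figure D5:**
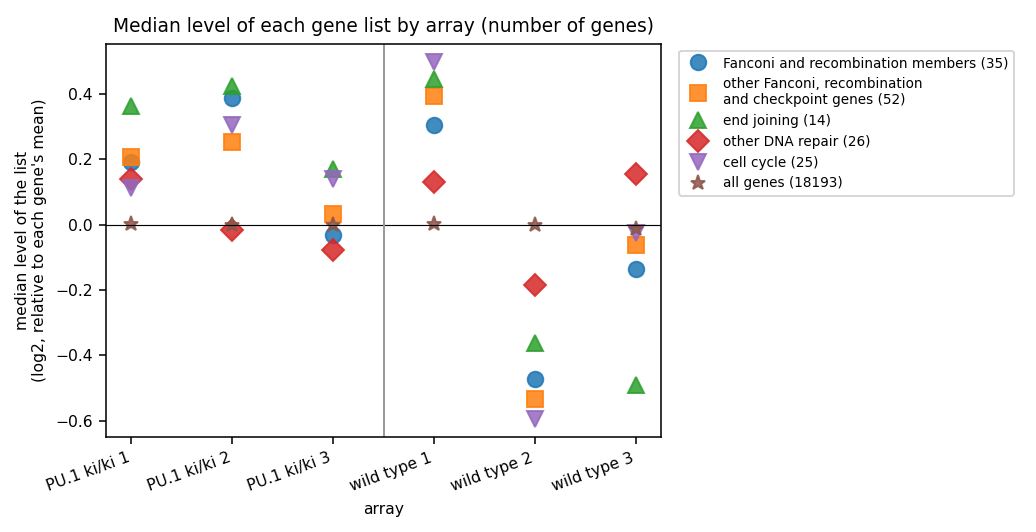
Median level of each gene list (y axis, log2 relative to each gene's mean over the 6 arrays) on each PU.1 ki/ki and wild-type array (x axis), with the number of genes in the legend. The repair genes lie at -0.47 on wild-type replicate 2 and at 0.31 on wild-type replicate 1, and all genes together lie near 0 on every array.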

How the data were processed

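Total RNA of sorted HSCs was extracted with Trizol and hybridised as biotin-labelled cRNA to single-colour oligonucleotide arrays, per the labels' protocols. RMA made the deposited intensities, per the submitters' processing notes, and its version is not given in the sources used here. They are whole numbers on a linear scale with a minimum of 10, and how that scale was made is likewise not given. The sample descriptions speak of embryos, which no other label does, and were set aside. Groups came from the titles. Precision is limited by there being 3 arrays a group.

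Of 45101 entries, 64 control probe sets were left out. The array annotation gave 1 symbol to 34945 probe sets and several to 932, which were left unnamed, and did not list 9160. H2afx was matched to H2ax through the RefSeq gene table. On log2(intensity + 1), a pseudocount that understates differences of dim probe sets, limma 3.58.1 (lmFit and eBayes, R 4.3.3) fitted genotype over all 45037 probe sets, with Benjamini-Hochberg adjustment and a threshold of 0.05. The steps were tested on simulated data. Promoters are RefSeq's (GRCm38.p6). Figures used matplotlib 3.10.9.

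The members and lists were chosen with earlier results of these data known. All 37 members are named. For members, values on every array are given where groups do not overlap or the unadjusted p is under 0.05. They are also given for the 5 highest and 5 lowest differences, and for some other members and listed genes chosen after their values were seen. From each comparison list the 2 higher and 2 lower genes with the lowest p are named. Alternatives were a further quantile normalization, centring, a pseudocount of 16, the replicate block, each array left out, wild-type replicate 1 alone, a trended and robust prior, array weights, dim probe sets left out, an unmoderated test, an adjusted p under 0.1 and the mean of all probe sets. The choice of the probe set with the highest mean log2 value, and leaving out genes low on a wild-type array, were added once the data had been seen.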

Additional observations from a re-analysis of the deposited data

How the results depend on the processing

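No repair gene passed an adjusted p of 0.05 under any alternative run, and 0 probe sets did. The lowest adjusted p of a repair gene was 0.147, without wild-type replicate 1. Same-numbered arrays of the groups did not deviate together (correlations of -0.016, 0.021 and -0.017 for numbers 1, 2 and 3). With 3 arrays a group this cannot exclude a batch shared by same-numbered arrays. The replicate block left every difference as it was, as it must in a balanced design, with 0 genes past the test and a lowest limma adjusted p of 0.664. The median difference of 0.18 lay between 0.10 and 0.44 when single arrays were left out. It was 0.04 after quantile normalization and 0.07 after centring, where the median of all genes was -0.07 and -0.10. It was 0.17 with a pseudocount of 16, 0.31 without dim probe sets and 0.25 for the mean of all probe sets. For the probe set with the highest mean log2 value it was 0.31, and against wild-type replicate 1 alone it was -0.07. Without the 9 genes low on a wild-type array it was 0.13, but that step selects on low wild-type values and by itself tends to lower the median. The 5 separated genes became 6 to 14 when an array was left out (19.1 to 31.8% of all genes) and 27 against wild-type replicate 1 alone (54.0%), where fewer values can overlap. The 5 genes separate by construction when arrays are left out. Slx4 overlapped after quantile normalization and after centring, and Rad51d and Fancg overlapped for the mean of all probe sets.

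Of the 35 genes, 15 changed sign under no alternative. Against wild-type replicate 1 alone the sign changed for H2ax (-0.071), Rad50 (-0.073), Eme1 (-1.31), Rad54l (-0.47), Chek1 (-0.091), Fancc (-0.25), Wrn (-0.43), Rad51c (-1.41), Fancb (-0.15), Brca1 (-0.48), Exo1 (-0.55), Fancl (0.60) and Fanci (0.57). After quantile normalization it changed for Blm (-0.051), Nbn (-0.026), Brca1 (-0.11), Palb2 (-0.12) and Exo1 (-0.13), and after centring for Fancb (-0.015), Brca1 (-0.048), Palb2 (-0.052) and Exo1 (-0.10). It changed with a pseudocount of 16 for Exo1 (-0.081), and with array weights for Rad51c (-0.020), Brca1 (-0.0004) and Fancl (0.016). The mean of all probe sets turned Fancd2 (0.29), and the probe set with the highest mean log2 value turned Fancd2 (0.67) and Atr (-0.22). Genes that changed sign when a single array was left out ranged as follows. Eme1 ranged from -0.49 to 1.44, Rad54l from -0.0017 to 0.89, Chek1 from -0.045 to 0.98, Wrn from -0.035 to 0.48 and Blm from -0.23 to 0.39. Nbn ranged from -0.40 to 0.61, Rad51c from -0.42 to 0.89, Fancb from -0.050 to 0.21, Brca1 from -0.56 to 0.67 and Palb2 from -0.32 to 0.26. Exo1 ranged from -0.95 to 0.68, Fancd2 from -0.54 to 0.92, Fanca from -1.26 to 1.10, Fancl from -0.47 to 0.18 and Bard1 from -1.31 to 0.19. The cause of these changes was not tested.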

Other observations

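Genes of mismatch, excision and direct repair, which act outside recombination, were read by 26 of 30 listed genes. In the HSCs of PU.1 ki/ki mice 15 were higher and 11 lower, with a median of 0.09, and 0 had an adjusted p under 0.05 in limma. The median was -0.07 after quantile normalization and -0.01 after centring, where that of all genes was -0.07 and -0.10. For this list it was -0.03 without wild-type replicate 2, -0.01 without replicate 3 and -0.06 against replicate 1 alone. Ddb2, which recognises ultraviolet damage, read 161, 310 and 223 in knock-in, against 338, 451 and 554 in wild type, with no overlap (-0.97, limma adjusted p = 0.563). Genes without overlap made up 3.85% of this list, beside 12.8% of all genes. The endonuclease gene Ercc5 averaged 191 ± 89.0 in knock-in and 94.3 ± 42.3 in wild type (1.01, n = 3 arrays each), and the helicase gene Ercc3 averaged 250.3 ± 158 and 149 ± 48.9 (0.62). The oxidised-base glycosylase gene Ogg1 averaged 135 ± 73.3 in knock-in and 220.0 ± 111 in wild type (-0.71). The median level of this list was 0.14, -0.02 and -0.08 on the knock-in arrays, against 0.13, -0.18 and 0.16 on wild-type replicates 1, 2 and 3.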
